A study of Mus musculus with 14 samples.

Results

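Zfp600 to Zfp999 were examined as a block of zinc finger genes in 2 lists of DMC1 peaks, one from mice with HELLS (Hells CTRL) and one from mice without it in the male germline (Hells cKO). The block holds every protein-coding gene of the GENCODE M21 annotation (build GRCm38) whose symbol runs from Zfp600 to Zfp999, with or without a final letter, which gave 182 of the 21755 protein-coding genes on chromosomes 1 to 19 and X. The symbol alone defined the members, and no peak value entered that rule, but the block was chosen with earlier results of these data known. A member was called clustered where the body of another protein-coding Zfp gene lay within 100 kb, and single otherwise, which gave 113 clustered and 69 single members. The members lay on 20 chromosomes, with 38 on chromosome 7, 24 on chromosome 17, 20 on chromosome 4 and 16 each on chromosomes 2 and 8.

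C2H2 zinc finger proteins bind DNA through arrays of short zinc-holding loops, and many of them carry a KRAB domain, which recruits the corepressor TRIM28 to silence transposable elements. Their genes have multiplied in tandem in the mouse, so neighbours in a cluster can share long stretches of nearly identical sequence. DMC1 is a recombinase that coats the single-stranded DNA at meiotic double-strand breaks, and sequencing the single-stranded DNA bound to it (DMC1-SSDS) maps the hotspots where breaks form. HELLS is a chromatin remodeler, and PRDM9 is the zinc finger methyltransferase that places hotspots, for the most part away from promoters.

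The Hells CTRL mice were Hells fl/Δ, 5 weeks old, with 2 testes used for each replicate. The Hells cKO mice were Hells fl/Δ;Stra8-iCre, 9 weeks old, with 3 testes for each replicate. Both genotypes thus carried 1 deleted Hells allele and 1 floxed allele, both carried the Dom2 allele of Prdm9 on a C57BL/6N-derived background, and whole testis was used in both. The Cre recombinase was driven by the Stra8 promoter, which acts in male germ cells, and the study reported that some spermatocytes of these mice retained HELLS. Age and genotype cannot be told apart. The authors merged the 2 replicates of each genotype into 1 list, so no spread between replicates could be computed and no difference between the lists was tested.

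The Hells CTRL list held 11133 peaks with a median strength of 63 (range 11 to 5547), and the Hells cKO list 17117 peaks with a median of 31 (range 5 to 3299). Strength is the score the authors deposited for each peak, and since the lists could not be scaled to each other, each strength is given with its percentile within its own list. A start peak is one whose center lay within 1 kb of any annotated transcript start of the gene, and a body peak is one whose center lay inside the gene and over 1 kb from each of its starts. Intervals are exact 95% binomial intervals and cover counting error only. The intervals treat genes as independent, and since genes of a cluster share sequence and can share a peak, they are too narrow. Read depth behind the peaks is unknown from these lists.

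The starts of 6 members show the range of sequence behind these values. Promoters are from RefSeq (GRCm38.p6), 250 bases before to 50 after the start on the gene's own strand, with each CpG in capitals, and 154 of the 182 members had one in the table used. Zfp654 and Zfp711, which are described below, were among the 28 without an entry. Zfp800 (chr6:28261875-28262174, minus strand) held the second strongest Hells cKO start peak of the block, and its promoter had 41 CpG in 300 bases:
Zfp800: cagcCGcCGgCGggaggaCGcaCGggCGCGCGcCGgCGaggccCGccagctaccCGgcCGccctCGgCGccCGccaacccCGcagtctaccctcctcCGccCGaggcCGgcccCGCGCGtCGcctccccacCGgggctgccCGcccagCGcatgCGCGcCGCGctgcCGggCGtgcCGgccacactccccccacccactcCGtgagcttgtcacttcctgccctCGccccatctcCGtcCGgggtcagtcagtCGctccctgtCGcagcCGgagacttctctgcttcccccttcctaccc
Zfp943 (chr17:21962309-21962608, plus strand) and Zfp758 (chr17:22361213-22361512, plus strand) lie in neighbouring clusters of chromosome 17 and each faces another member across a shared start region. Their promoters were identical at all 292 aligned bases, in an alignment of 308 columns whose other columns were gaps:
Zfp943: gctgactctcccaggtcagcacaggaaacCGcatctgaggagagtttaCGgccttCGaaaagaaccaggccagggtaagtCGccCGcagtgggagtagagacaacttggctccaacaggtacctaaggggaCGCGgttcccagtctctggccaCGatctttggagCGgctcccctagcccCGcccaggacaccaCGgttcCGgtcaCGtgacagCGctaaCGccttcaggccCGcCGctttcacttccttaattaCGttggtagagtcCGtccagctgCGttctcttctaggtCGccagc
Zfp758: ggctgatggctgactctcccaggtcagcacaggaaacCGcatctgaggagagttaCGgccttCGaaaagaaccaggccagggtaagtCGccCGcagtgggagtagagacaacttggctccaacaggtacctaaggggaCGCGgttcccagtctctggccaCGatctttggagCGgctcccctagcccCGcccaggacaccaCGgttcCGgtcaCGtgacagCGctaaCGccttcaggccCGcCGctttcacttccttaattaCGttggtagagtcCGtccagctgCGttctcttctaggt
Zfp941 (chr7:140822129-140822428, minus strand) held the strongest Hells CTRL start peak, and this promoter had 5 CpG:
Zfp941: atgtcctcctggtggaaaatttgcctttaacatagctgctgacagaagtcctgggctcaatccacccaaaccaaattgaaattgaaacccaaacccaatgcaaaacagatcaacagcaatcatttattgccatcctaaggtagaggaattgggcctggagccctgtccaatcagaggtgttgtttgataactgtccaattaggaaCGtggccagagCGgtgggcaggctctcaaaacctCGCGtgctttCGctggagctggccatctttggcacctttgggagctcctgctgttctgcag
Zfp933 (chr4:147848369-147848668, minus strand) and Zfp804a (chr2:82053408-82053707, plus strand) had no start peak in either list, although their promoters held 9 and 45 CpG:
Zfp933: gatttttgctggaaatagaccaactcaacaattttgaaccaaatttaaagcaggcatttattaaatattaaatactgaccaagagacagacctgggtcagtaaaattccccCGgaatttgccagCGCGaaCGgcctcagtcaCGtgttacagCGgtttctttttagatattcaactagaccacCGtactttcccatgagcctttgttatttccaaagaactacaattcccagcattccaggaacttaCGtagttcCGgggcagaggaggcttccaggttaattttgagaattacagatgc
Zfp804a: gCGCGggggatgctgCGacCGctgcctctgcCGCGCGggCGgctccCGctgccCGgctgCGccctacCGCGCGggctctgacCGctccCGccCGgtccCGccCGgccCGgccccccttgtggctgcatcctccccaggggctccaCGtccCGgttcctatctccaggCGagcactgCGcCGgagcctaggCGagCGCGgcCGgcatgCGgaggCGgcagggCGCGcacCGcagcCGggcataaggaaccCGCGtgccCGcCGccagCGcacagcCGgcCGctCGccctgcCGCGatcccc

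At the starts, members with a peak were few in Hells CTRL and many in Hells cKO. In Hells CTRL, 4 of the 182 members had a start peak, or 2.2% (interval 0.602 to 5.53%), against 2.7% of all protein-coding genes. In Hells cKO, 108 members had one, or 59.3% (51.8 to 66.5%), against 45.6% of all protein-coding genes. The other numbered Zfp genes, Zfp1 to Zfp599, had a Hells cKO start peak in 142 of 209 cases (67.9%, 61.2 to 74.2%). The members thus stood above the share of all genes in Hells cKO. With peaks at or above the list's median strength alone, the share was 35.7% of members (28.8 to 43.1%) and 31.3% of all genes. The members' interval then held the all-gene value. At all strengths the members' interval overlapped that of the lower-numbered Zfp genes. By member, 105 had a start peak in Hells cKO alone, 3 in both lists, 1 in Hells CTRL alone and 73 in neither. No such split over all protein-coding genes is given here, so this one is not read as particular to the block.

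**Figure D1:**
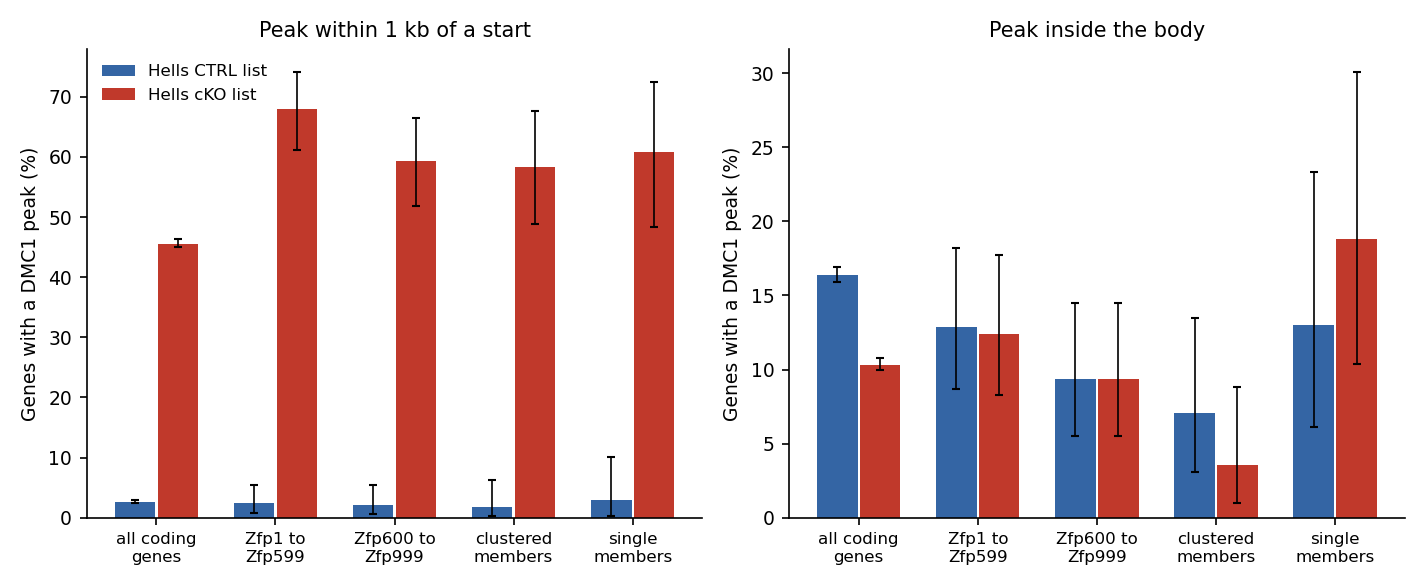
Share of genes (%) with a DMC1 peak within 1 kb of a start (left) and inside the body (right) in the Hells CTRL and Hells cKO lists, for all protein-coding genes, Zfp1 to Zfp599, Zfp600 to Zfp999 and its clustered and single genes. Bars start at 0 and error bars are exact 95% binomial intervals; at starts the Hells cKO bar of Zfp600 to Zfp999 stands at 59.3% and the Hells CTRL bar at 2.2%.

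The start peaks of the members were of moderate strength. Over the 108 members, the strongest Hells cKO start peak had a median strength of 36 (quartiles 23 and 63.2, range 9 to 310) and a median percentile of 56.4, beside 67.1 over all 9925 genes with such a peak and 67.1 over Zfp1 to Zfp599. In 43 of the 108 members the peak lay below the median of its list, and in 13 above the 90th percentile. Over all 9925 genes with such a peak, the counts were 3114 and 1764. The peak centers lay a median of 149 bp from the nearest start of the member, with 150 bp over all genes, and 83 of 108 (76.9%) lay within 250 bp, with 69.6% over all genes. The center was downstream of that start in 84 members (77.8%), and in 65.9% of all genes. The 108 members held 108 distinct start peaks, since 5 members had 2 peaks each and some neighbours shared 1. In 9 members the strongest peak also lay within 1 kb of the start of another member.

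Zfp654 had the strongest Hells cKO start peak of the block (chr16:64850081-64853466), with a strength of 310 at percentile 99.3. Its center lay 121 bp upstream of the Zfp654 start and within 1 kb of the start of Cggbp1, so it can be assigned to either gene. The same gene had no start peak in Hells CTRL but held 2 Hells CTRL peaks in introns, with strengths of 108 and 90. Zfp800 followed with 178 (percentile 95.8), then Zfp711 with 173 (95.4) and Zfp827 with 171 (95.3). Zfp827, whose human counterpart is known from work on telomere chromatin, had its peak 644 bp downstream of a start. Zfp788 stood at 144 (92.9) and Zfp622, a ribosome biogenesis factor, at 137 (92.2). Zfp871 had a strength of 130 (91.3) and Zfp715 129 (91.2). None of these except Zfp711 had a start peak in Hells CTRL.

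The divergent pairs of chromosome 17 completed the 12 strongest. Zfp944 and Zfp758 shared 1 peak of strength 132 (chr17:22360485-22362438, percentile 91.5), centered 61 bp upstream of the Zfp944 start and 6 bp downstream of the Zfp758 start. Zfp942 and Zfp943 shared another of strength 129 (chr17:21961601-21963594, percentile 91.2), 133 bp upstream of the one and 11 bp downstream of the other. These are the start regions whose promoters were printed above as identical over 292 bases, and their strengths differed by 3. Between 62.2 and 64.8% of the 50-base words around these 4 starts occurred once in the genome, and the authors kept only uniquely mapped reads.

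Each of the 4 Hells CTRL start peaks can be given in full. Zfp941 had a strength of 112 (percentile 66.8, chr7:140820556-140822957) in Hells CTRL and 31 (50.2) in Hells cKO, with centers 181 bp apart. Zfp711, an X-linked gene that in humans is known from intellectual disability, had 48 (40.1) in Hells CTRL and 173 (95.4) in Hells cKO, with centers 131 bp apart in its first kilobase. Peaks whose centers lay within 400 bp were called common, and these 2 were the only start peaks of the block that were. Their order was opposite: Zfp941 was the higher of the pair in Hells CTRL and Zfp711 in Hells cKO. Zfp746, which encodes the parkin substrate PARIS, had 30 (21.9) in Hells CTRL and 31 (50.2) in Hells cKO, but at different starts of the gene, with centers at 48082572 and 48086412 on chromosome 6. Zfp995 had a weak peak of 17 (2.52) in Hells CTRL and none in Hells cKO.

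Several members with known roles lay lower in the Hells cKO list. Zfp809, a KRAB protein that silences retroviruses, had a start peak of 73 (percentile 79.1). Zfp819, linked to retrotransposon silencing, had 20 (30.1), and Zfp932 and Zfp708, both studied for their binding to transposable elements, had 31 (50.2) and 19 (27.7). Zfp638, an RNA-binding silencer of unintegrated viral DNA, had 2 start peaks, the stronger at 103 (87.1) and the other at 30 (48.7). Zfp644, a partner of the H3K9 methyltransferases G9a and GLP, had 75 (79.8). Zfp804b had 31 (50.2). Zfp703, Zfp704, Zfp750 (an epidermal differentiation factor), Zfp683 (the lymphocyte factor Hobit), Zfp804a and Zfp600 had none in either list by the 1 kb reach. For Zfp704 this was a near miss, since a Hells cKO peak of strength 24 (percentile 38.9) was centered 1008 bp from a start and its interval covered that start. The corepressor machinery of KRAB proteins was read from a list of 22 genes, 21 of which were found under the symbol used. Of these, 19 (90.5%) had a Hells cKO start peak, with a median percentile of 75.3, beside 45.6% of all genes and a median of 67.1. In Hells CTRL 3 had one, beside 2.7% of all genes. The list was not matched for CpG content. Over all genes with 40 or more CpG within 250 bp of the 5' end, the Hells cKO values were 74.4% and a median percentile of 74.9. That class does not cover the list, whose genes ranged from 3 CpG (Trim28) to 77 (Pphln1). At 0 to 9 CpG, 9.59% of all genes had a Hells cKO start peak. Trim28 had 83 (82.3), Setdb1 36 (56.4), Atrx 309 (99.3), Pphln1 213 (97.5), Chd4 22 (34.9) and Cbx5 9 (1.41) in Hells cKO, while Dnmt3b and Dnmt3l had none.

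Clustered and single members had nearly the same share of Hells cKO start peaks. The share was 66 of 113 clustered members (58.4%, 48.8 to 67.6%) and 42 of 69 single members (60.9%, 48.4 to 72.4%), and the intervals overlapped. The order was not stable: with a distance of 50 kb in place of 100 kb the shares were 61.8 and 56.2%. The strongest peaks had a median strength of 31.5 (percentile 50.9) in clustered and 40 (60.4) in single members, with ranges that overlapped. In Hells CTRL, 2 clustered (1.77%) and 2 single members (2.9%) had a start peak.

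The clusters differed from each other. The 113 clustered members fell into 39 clusters, and 17 of these held 3 or more members. In 7 of the 17 each member had a Hells cKO start peak, in 5 none had, and in the other 5 some had. Some clusters also hold Zfp genes outside the block, which these counts leave out. Neighbours can share a peak, and no such split was made over clusters of other genes. The split is therefore not read as particular to the block. The 2 clusters with most members were mixed. The one at chr13:67038596-67827002, with 23 Zfp genes in all, had a start peak in 6 of its 10 members, with strengths from 9 (Zfp874a) to 47 (Zfp748). The one at chr17:21383748-22225616, with 15 Zfp genes in all, had one in 7 of 10 members, from 11 (Zfp677) to 129 (Zfp942 and Zfp943). The near neighbours Zfp874a and Zfp874b, which had 16 and 15 CpG, split: Zfp874a had a peak of 9, at percentile 1.41, and Zfp874b had none. Of the 3 clusters with 6 members, the one at chr17:32765496-33110705 had a peak in all 6, from 13 (Zfp811) to 130 (Zfp871). The one at chr7:127233061-127449158 had a peak in 5, from 16 (Zfp747) to 122 (Zfp689), and the one at chr7:27689340-28014115 in 4, from 14 (Zfp607a) to 53 (Zfp850).

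**Figure D2:**
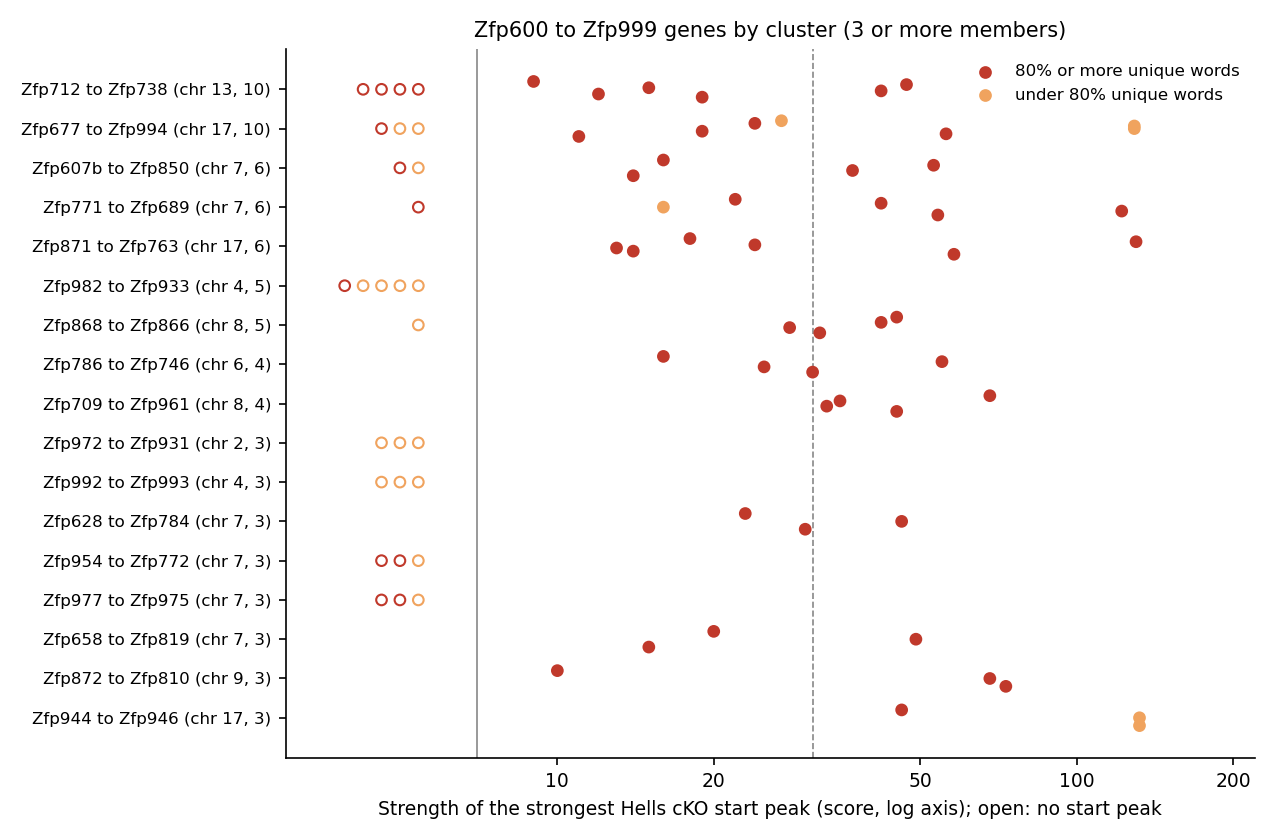
Strength (score, log axis) of the strongest Hells cKO start peak of each member in the 17 clusters with 3 or more members, named by their first and last member with chromosome and member count. Filled points are members with a peak, open points left of the line are members without one and have no strength, orange marks starts with under 80% unique 50-base words, and the dashed line is the list median of 31; 5 rows hold open points alone and 7 hold filled points alone.

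The 5 clusters of 3 or more members with no start peak at any member had, over their members, median values of 6 to 18 CpG and of 29.3 to 93.7% unique words. The 5 members at chr4:147492417-147848366 (Zfp982, Zfp985, Zfp979, Zfp984 and Zfp933) had a median of 7 CpG within 250 bp of the gene's 5' end, and a median of 72.7% of the 50-base words within 500 bp of that end occurred once in the genome. Zfp992, Zfp981 and Zfp993, on the same chromosome, had a median of 6 CpG and 54.6% unique words. Zfp972, Zfp971 and Zfp931 of chromosome 2 had 10 CpG and 29.3% unique words. Zfp977, Zfp976 and Zfp975 of chromosome 7 had 14 CpG and 82% unique words. Zfp954, Zfp773 and Zfp772 of the same chromosome had 18 CpG and 93.7% unique words, with 50.6% at Zfp772. By chromosome, 2 of 20 members on chromosome 4 and 3 of 16 on chromosome 2 had a Hells cKO start peak, beside 8 of 8 on chromosome 6 and 14 of 16 on chromosome 8. Other chromosomes lay between these, with 27 of 38 on chromosome 7, 19 of 24 on 17, 9 of 14 on 13 and 3 of 9 on 11. No share over all genes of each chromosome is given here, so no difference between chromosomes is read.

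Repeated sequence was more frequent at the members' starts than at those of other genes. Under 80% of the words were unique at 50 of the 182 members (27.5%), at 8.88% of all protein-coding genes and at 4.31% of Zfp1 to Zfp599. Of these 50, 14 had a Hells cKO start peak (28%, 16.2 to 42.5%), while 94 of the other 132 had one (71.2%, 62.7 to 78.8%). Over all genes the share was 252 of 1932 (13%) under 80% unique words and 48.8% with at least 80%. The members thus lay above all genes on both sides of the limit. At 80% or more unique words, clustered members had 55 of 76 (72.4%) and single members 39 of 56 (69.6%). At 10 members no word was unique, and 1 of them, Zfp781, had a start peak, of strength 24. The part of read mapping in the missing peaks was not tested.

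The members from Zfp900 upward carried most of this repeated sequence. Of these 65 genes, 41 (63.1%) had under 80% unique words, and 25 (38.5%, 26.7 to 51.4%) had a Hells cKO start peak, beside 83 of 117 (70.9%, 61.8 to 79%) for Zfp600 to Zfp899. With at least 80% unique words the shares were 15 of 24 (62.5%, 40.6 to 81.2%) and 79 of 108 (73.1%, 63.8 to 81.2%), and the intervals then overlapped.

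The share with a Hells cKO start peak also moved with CpG content. A median of 21 CpG lay within 250 bp of the 5' end of a member, beside 24 for all genes, and the median was 30 in members with a Hells cKO start peak and 12 in those without. From the lowest to the highest class of CpG, the share of members with a peak was 8 of 32 (25%) at 0 to 9 CpG, 28 of 58 (48.3%) at 10 to 19, 15 of 24 (62.5%) at 20 to 29, 34 of 38 (89.5%) at 30 to 39 and 23 of 30 (76.7%) at 40 or more. Over all genes the same classes gave 9.59, 34.6, 57.4, 70.6 and 74.4%. Both parts of the Zfp family lay above all genes in each class, Zfp1 to Zfp599 with 41.2, 47.2, 70.6, 73.9 and 81.4%. The interval of the members excluded the all-gene value at 0 to 9 (11.5 to 43.4%), 10 to 19 (35 to 61.8%) and 30 to 39 CpG (75.2 to 97.1%), and held it at 20 to 29 (40.6 to 81.2%) and at 40 or more (57.7 to 90.1%).

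A gene's 5' end need not be the start that carried the peak. Of the 8 members with under 10 CpG at the 5' end and a Hells cKO start peak, 7 had 10 or more at another of their starts, such as Zfp644 with 8 at the 5' end and 69 at its CpG-richest start. Counted at the CpG-richest start of each gene, a choice made after seeing the data, 1 of 21 members under 10 CpG had a peak (4.76%, 0.12 to 23.8%), namely Zfp831, and 23 of 56 (41.1%) at 10 to 19 CpG, against 1.33 and 21.7% of all genes. The interval of the lowest class then held the all-gene value. At 30 to 39 CpG the values were 29 of 32 members (90.6%, 75 to 98%) and 66.3% of all genes.

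**Figure D3:**
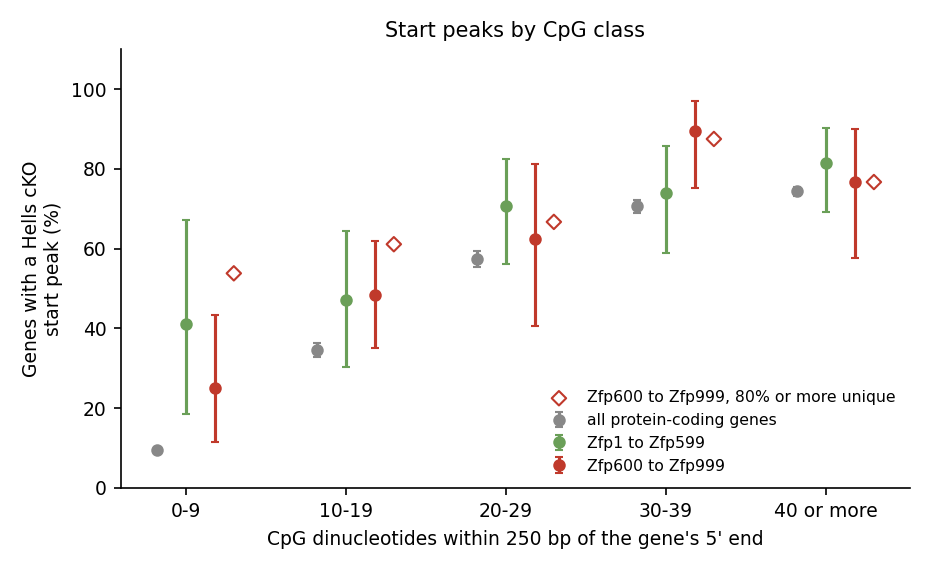
Share of genes (%) with a Hells cKO start peak in 5 classes of CpG count within 250 bp of the gene's 5' end, for all protein-coding genes, Zfp1 to Zfp599 and Zfp600 to Zfp999, with exact 95% binomial intervals; open diamonds are Zfp600 to Zfp999 genes with at least 80% unique words. The red points rise from 25% at 0 to 9 CpG to 89.5% at 30 to 39 CpG.

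Of the 74 members without a Hells cKO start peak, 36 had under 80% unique words and 18 had both at least 80% unique words and 20 or more CpG. These 18 included the CpG-rich, single members Zfp664 (64 CpG), Zfp703 (62), Zfp704 (60) and Zfp804a (51). They also included the clustered KRAB-type genes Zfp712, Zfp780b, Zfp790, Zfp846 and Zfp954, which had 23 to 27 CpG. Zfp703 encodes a transcriptional corepressor. Of these, Zfp704 had the Hells cKO peak just outside the reach that was given above. A start without a called peak does not show that no break formed there.

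The encoded proteins split the block in another way. The pattern of a C2H2 finger was counted in the longest coding sequence of each member and was found 11 times at the median, and 8 members had none. A KRAB-like pattern near the amino end was found in 78 members (42.9%), 61 of 113 clustered (54%) and 17 of 69 single ones (24.6%), and in 0.0954% of genes without a finger pattern. Members with the KRAB-like pattern had a Hells cKO start peak in 45 of 78 cases (57.7%, 46 to 68.8%) and the rest in 63 of 104 (60.6%, 50.5 to 70%). The median CpG was 17 in the former and 28.5 in the latter. Among starts with at least 80% unique words the order was reversed. The shares there were 40 of 52 (76.9%, 63.2 to 87.5%) with the pattern and 54 of 80 (67.5%, 56.1 to 77.6%) without it. No order between them is read. By number of fingers, the share was 14 of 27 (51.9%, 31.9 to 71.3%) with 0 to 4 and 25 of 47 (53.2%, 38.1 to 67.9%) with 5 to 9. It was 38 of 68 (55.9%, 43.3 to 67.9%) with 10 to 14 and 31 of 40 (77.5%, 61.5 to 89.2%) with 15 or more. The last interval overlapped each of the others. For starts with at least 80% unique words it was 28 of 33 (84.8%, 68.1 to 94.9%) with 15 or more and 66 of 99 (66.7%, 56.5 to 75.8%) with fewer, and these intervals overlapped too. A start of another gene on the opposite strand lay within 1 kb in 35 members (19.2%), of which 23 had a Hells cKO start peak (65.7%), beside 85 of the other 147 (57.8%). Over all genes the corresponding shares were 72.3 and 39%.

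Inside the gene bodies the lists were balanced in number and differed in position. Body peaks were found in 17 members in Hells CTRL (9.34%, 5.54 to 14.5%) and in 17 in Hells cKO (9.34%), and 4 members had both. Over all protein-coding genes, 16.4% had a Hells CTRL body peak and 10.3% a Hells cKO body peak. In Hells cKO the share was 13 of 69 single members (18.8%, 10.4 to 30.1%) and 4 of 113 clustered ones (3.54%, 0.973 to 8.82%), and in Hells CTRL 9 (13%) and 8 (7.08%). Single members had longer bodies at the upper quartile (67.3 kb against 25.4 kb). Per Mb of body outside the starts, the Hells cKO list had 4.74 peaks in single and 1.99 in clustered members, and the Hells CTRL list 3.9 and 3.97. Over all members the densities were 3.75 in Hells cKO and 3.93 in Hells CTRL, beside 2.92 and 5.55 for all genes and 5.47 and 7.01 for Zfp1 to Zfp599. These values include 3 Hells cKO body peaks within 1 kb of a start of another gene, while no Hells CTRL body peak lay at one. They also include the Zfp704 peak just outside the reach that was given above. All of these are kept in the counts by exon and CpG below.

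In Hells CTRL, 19 of the 22 body peaks lay in introns (86.4%, with 91.5% over all genes) and their centers were poor in CpG. They had a median of 4.5 CpG within 250 bp, and 2 of 22 had 10 or more (9.09%), beside a median of 4 and 8.84% over the Hells CTRL body peaks of all genes. In Hells cKO, 12 of 21 lay in exons (57.1%, with 24.4% over all genes), with a median of 20 CpG (15 over all genes). Of the 21, 18 had 10 or more (85.7%, with 76.9% over all genes). The 32 Hells cKO body peaks of Zfp1 to Zfp599 were close to this. Of those, 50% lay in exons, their median was 21 CpG, and 84.4% had 10 or more. Neither trait is therefore particular to the block. Among the members, only 1 body peak position was common to both lists, in an intron of Zfp618, which encodes a protein known to bind UHRF2. There the strength was 294 (percentile 87.9) in Hells CTRL and 12 (7.97) in Hells cKO, and the center had 5 and 3 CpG by the 2 lists.

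The strongest Hells CTRL body peak had a strength of 599 (percentile 96.2, chr8:71951126-71953335) in an intron of Zfp961, 1139 bp from the nearest start. The same gene had a Hells cKO start peak of 68 (77.3), centered 338 bp downstream of a start. Next came Zfp618 with 294, Zfp956 with 270 (86.3), Zfp661 with 230 (83.2), Zfp850 with 216 (82) and Zfp704 with 133 (71.1). The Zfp661 peak lay 1175 bp from a start, so that this peak and that of Zfp961 were just outside the 1 kb reach. Zfp850 was the exception in position, with its center in the last coding exon, which encodes 16 finger patterns.

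In Hells cKO the strongest body peak had a strength of 142 (percentile 92.7, chr8:85109242-85111345) in the last coding exon of Zfp791, which encodes 15 finger patterns. The start peak of the same gene was weak, at 9 (1.41). Zfp647 had a body peak of 105 (87.5) over its last coding exon with 13 finger patterns, and Zfp619 one of 90 (84.1) over its last coding exon with 33. Zfp831 had 98 (86) in a noncoding exon, Zfp955b 56 (72.1) in a noncoding exon within 1 kb of the start of a pseudogene, and Zfp827 37 (57.5) in a coding exon with no finger pattern. Of the 9 Hells cKO body peaks in coding exons, 7 lay in the last one and 5 in an exon with finger patterns, and the 3 Hells CTRL ones lay in a last exon with finger patterns. These exons held 31, 34 and 27 CpG around the Hells cKO centers in Zfp791, Zfp647 and Zfp619, and 3, 4 and 13 around the Hells CTRL centers in Zfp850, Zfp605 and Zfp879. The counts of peaks in last exons and in exons with finger patterns were not made over other genes. They are therefore not read as a trait of the block.

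**Figure D4:**
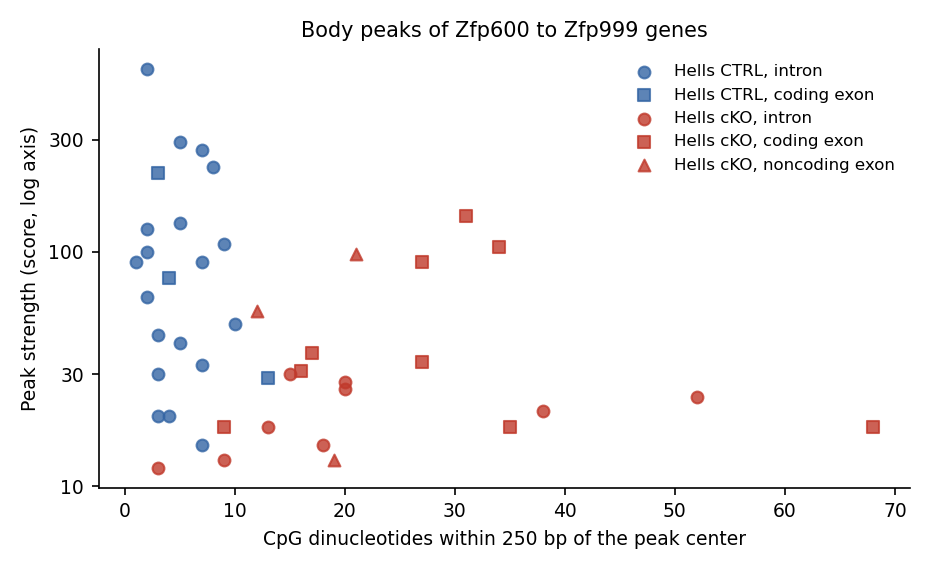
Strength (score, log axis) of each body peak of Zfp600 to Zfp999 against the CpG count within 250 bp of its center, blue for the 22 peaks of the Hells CTRL list and red for the 21 of the Hells cKO list, with circles for introns, squares for coding exons and triangles for noncoding exons. The blue points lie between 1 and 13 CpG and the red between 3 and 68; strengths are not comparable between the lists.

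The 150 bases at the centers of the strongest body peak of each list show this difference. The Zfp961 window in Hells CTRL (chr8:71952155-71952304, GRCm38, plus strand) held 0 CpG, and the Zfp791 window in Hells cKO (chr8:85110218-85110367, GRCm38, minus strand) held 7, in capitals:
Zfp961: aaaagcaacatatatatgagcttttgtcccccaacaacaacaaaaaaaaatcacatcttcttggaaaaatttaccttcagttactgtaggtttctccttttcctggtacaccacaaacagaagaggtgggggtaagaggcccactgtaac
Zfp791: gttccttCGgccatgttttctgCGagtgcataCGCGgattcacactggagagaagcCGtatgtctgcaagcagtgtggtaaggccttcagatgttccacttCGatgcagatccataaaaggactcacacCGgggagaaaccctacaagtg
Across starts and bodies, 62 of the 182 members had no peak in either list, 21 had one in Hells CTRL and 116 in Hells cKO. These joint totals are given for the members alone, without the share over all genes, and are not read as a trait of the block.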

How the data were processed

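DMC1-SSDS was performed by the authors on whole testis, 2 replicates per genotype. Reads were trimmed to 50 bp with a Phred score above 28, aligned to mm10 and kept when uniquely mapped and not duplicated, and peaks were called with MACS2 and filtered by the irreproducible discovery rate. The submitters' processing notes name BWA, Bowtie2, CASAVA, MACS2 and Trimmomatic. The deposited strength is a score per peak, 1 merged list per genotype, not scaled between genotypes. Only the 4 DMC1 libraries were used.

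Peak centers were placed on GENCODE M21 (GRCm38, the mm10 build) with Python 3.11.15 and pandas 2.3.3. Percentiles are mid-ranks within a list. Intervals are exact binomial (scipy 1.17.1). Unique 50-base words were counted in the primary GRCm38 sequences on both strands. No reference protein table was used, so C2H2 and KRAB-like patterns were searched in translated GENCODE coding sequences. Peak assignment and word counting were tested on simulated data. Peaks whose centers lay within 400 bp were called common.

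Named genes were the members with the 12 strongest Hells cKO start peaks, those with Hells CTRL start peaks, the 6 strongest body peaks of each list, members with common peaks, the clusters with most members (all tied ones), and a fixed list of members with known roles. Other genes were named with their values already known. The members and lists were chosen with earlier results of these data known. Alternatives covered reach, start set, strength, uniqueness and cluster distance.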

Additional observations from a re-analysis of the deposited data

How the results depend on the processing

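With peaks at or above the median strength of their list alone, the share of members with a start peak was 35.7% in Hells cKO (28.8 to 43.1%, which holds the 31.3% of all genes) and 0.549% in Hells CTRL, 31% among clustered and 43.5% among single members, the median percentile was 72.1, and the Hells cKO body share was 4.4%. With at least 80% unique words the Hells cKO start share was 71.2%, and 72.4% among clustered members. Without leaving out the starts, 58.2% of members had a Hells cKO peak in the body. The other alternatives stayed within the interval of the reported value: a reach of 500 bp or 2 kb, any overlap, protein-coding transcripts or the 5' end alone, starts of all genes left out, and cluster distances of 50 and 250 kb. That interval is wide for the Hells CTRL start share, which was 2.2% (4 members) as reported, 1.1% (2 members) at 500 bp or with the 5' end alone, 1.65% (3) with protein-coding transcripts, and 3.3% (6) at 2 kb or with any overlap. The share of clustered members was below that of single ones at 100 kb (58.4 and 60.9%) and 250 kb (56.8 and 66%) and above it at 50 kb (61.8 and 56.2%) and with unique starts (72.4 and 69.6%), so no order between them is read. With neighbours of at least 5 finger patterns in place of Zfp symbols, chosen after seeing the data, it was 56.3 and 66.1%. No paired analysis was possible because the authors merged the replicates of each genotype into 1 list, and for the same reason no replicate could be left out.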
